A study of Mus musculus with 144 samples.

Results

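The data described here concern 10 circadian clock genes in cultured mouse hepatocytes: the transcriptional activators Arntl (also called Bmal1) and Clock, the repressors Per1, Per2, Per3, Cry1 and Cry2, and the regulators Nr1d1, Dbp and Bhlhe40. They were chosen by name, and their rows were read from the count file of every library, which holds 55359 genes. Primary hepatocytes isolated from livers of male mice received DMSO vehicle or 10 nM TCDD (2,3,7,8-tetrachlorodibenzo-p-dioxin), a ligand of the aryl hydrocarbon receptor (AHR), and were harvested at 2, 4, 8 and 12 h and then daily from 24 to 120 h, 9 hours in all. Each combination of genotype label, treatment and hour had 4 RNA-Seq libraries, giving 36 groups, with 13588848 to 30719161 read pairs counted on genes per library (median 18011825). In this system the clock genes can be followed both over days of culture and between TCDD and its time-matched vehicle.

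The libraries labelled WT and those labelled PkmΔDRE were given the same strain (C57BL/6NCrl), sex and age (28 days) in the labels. PkmΔDRE mice are a CRISPR-Cas9 line in which a short dioxin response element (DRE, a binding site of the AHR) in an intron of the pyruvate kinase gene Pkm was deleted. Both genotypes and both treatments shared the medium, which held dexamethasone, a glucocorticoid. Vehicle or TCDD was added after an attachment period, and the clock time of isolation was not given in the sources used here. The sources also do not give how many mice or isolations stand behind the 4 libraries of a group, so the p-values below measure the spread between these libraries only, and genotype cannot be told apart from isolation. Median Pkm was 139.3 CPM (the count scaled to library size) in vehicle and 102.7 CPM in TCDD libraries labelled WT, and 185 and 290 CPM in those labelled PkmΔDRE. Pkm is the targeted gene and ran against the labels, so any genotype direction below is that of the labels and no more.

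The clock is a transcriptional feedback loop. ARNTL and CLOCK pair on E-box sequences and switch on the Per and Cry genes, whose proteins then hold the pair back. Nr1d1 encodes REV-ERBα, which represses Arntl in an interlocking loop, Dbp encodes a transcription factor that acts through D-box sequences, and Bhlhe40 encodes DEC1, a repressor that competes for E-boxes. In liver the loop imposes daily rhythms on metabolic genes, and glucocorticoids and serum can set the phase of cultured cells.

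Promoter sequence shows which of these elements lie close to the members' start sites. In the 250 bases before each start of RefSeq's GRCm38.p6 windows, matched by symbol, 8 of the 10 members had an entry, in 12 windows, while Per2 and Bhlhe40 had none. Each motif was searched on both strands and independently of the others, so matches may overlap. The E-box CACGTG was found in 1 window of Per1 and in that of Cry1, compared with 6.02% of 32851 promoters of the same length. The D-box TTATGTAA was found 2 times in the Per3 window, compared with 0.819% of promoters with at least 1 match and 0.0183% with 2 or more. These 3 stretches are shown because they hold all E-box and D-box matches among the members. Capitals mark the motif, the bases run 5′ to 3′ on the gene's strand, and each lies upstream of an annotated RefSeq start. For Per1 that is an internal start, so its stretch lies inside the GENCODE gene model (chr11:69095217-69109960), while those of Per3 and Cry1 lie outside theirs. The Per3 stretch is chr4:151044776-151044910 (minus strand), the Cry1 stretch chr10:85185069-85185154 (minus strand) and the Per1 stretch chr11:69098743-69098828 (plus strand).
Per3: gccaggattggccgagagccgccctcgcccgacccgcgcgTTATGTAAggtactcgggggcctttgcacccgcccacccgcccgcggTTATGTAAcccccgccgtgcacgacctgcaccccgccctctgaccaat
Cry1: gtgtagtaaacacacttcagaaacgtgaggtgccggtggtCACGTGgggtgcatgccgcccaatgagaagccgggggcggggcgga
Per1: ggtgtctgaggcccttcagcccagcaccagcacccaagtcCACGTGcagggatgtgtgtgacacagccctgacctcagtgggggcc
The DRE core GCGTG occurred in 28.2% of promoters, counted by window. Among the members it was found in at least 1 window of Clock, Per1, Per3, Cry1, Cry2, Nr1d1 and Dbp and in neither window of Arntl. A gene with several windows has more room for a match, so this list of genes cannot be set against that share. A match describes letters only, and it does not identify a bound site.

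Before the members are described, 6 libraries must be named that went against their labels. The vehicle libraries labelled PkmΔDRE 4 h replicate 4 and 96 h replicate 4 were each nearest, over 12219 genes, to the mean profile of the other's hour, 6 positions away in the series of 9 hours. No other library was more than 2 positions away, and 120 were nearest to their own hour. Cyp1a1, the standard AHR target, was at 3252 CPM in the vehicle library labelled WT 48 h replicate 1 and at 1640 CPM in that labelled WT 96 h replicate 3, and at 1.36 and 27.6 CPM in the TCDD libraries labelled WT 2 h replicate 4 and 72 h replicate 4. The median over all hours was 3.51 CPM in vehicle and 3448 CPM in TCDD libraries labelled WT. At 2 h Cyp1a1 was still low. The other TCDD libraries labelled WT then held 6.25 to 28.6 CPM and the vehicle libraries 0.916 to 5.83 CPM. The 2 h library therefore departs far less from its own group than from that median. All 6 libraries were kept under their labels. Without the 4 Cyp1a1 libraries, the members' calls described below in WT were 49 in place of 50 against 2 h, 12 in place of 13 between neighbouring hours, 7 as before for TCDD by hour and 3 in place of 2 for its mean over hours. Without the 2 libraries labelled PkmΔDRE, the calls there were 34 in place of 30, 7 in place of 1, 3 in place of 2, and 1 as before.

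The levels of the members differed widely when compared per kilobase of exon. In vehicle libraries labelled WT at 2 h, Bhlhe40 stood highest at 77.2 ± 10.4 CPM per kb (SD, n = 4), with Nr1d1 at 64.6 ± 10.1 CPM per kb within about its spread, followed by Per1 at 31.8 ± 3.11 and Cry2 at 19.2 ± 1.36 CPM per kb. Per2 and Cry1 had 3.65 and 3.39 CPM per kb, which did not differ beyond their spread, and Arntl had 0.812 CPM per kb. Dbp had 3.49 ± 5.58 CPM per kb, and 0.711 ± 0.607 CPM per kb (n = 3) without replicate 3. Per3 and Clock had the lowest levels, 0.353 ± 0.189 and 0.342 ± 0.240 CPM per kb, again within their spread. By 24 h Nr1d1 had dropped to 1.71 CPM per kb, close to Clock at 1.73 CPM per kb, and Cry1 at 9.97 CPM per kb stood above Cry2 at 5.11 CPM per kb. Over all libraries Nr1d1 ranged from 2.86 to 448 CPM, whereas Dbp reached 35.4 CPM in 1 library and 0 in others.

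In vehicle-treated hepatocytes many clock genes changed within the first day, and Nr1d1, Per1, Cry2 and Bhlhe40 fell under both labels and were still lower at 120 h. Cry1 rose at 12 and 24 h under both labels, and Clock rose at 12, 24 and 120 h under both and at each hour between in WT. Arntl rose from 24 h on in WT and was called at no hour in PkmΔDRE, while Per2 rose at 8 and 12 h in PkmΔDRE and fell from 48 h on in WT. Whether these changes against 2 h differ between the labels was not tested. Tested over all 9 hours with edgeR's quasi-likelihood F test, all 10 members changed in libraries labelled WT (adjusted p under 0.05), where 80.8% of 15862 genes did, and 9 of 10 in those labelled PkmΔDRE, where 56.8% of 15968 genes did. Dbp was the exception there (adjusted p = 0.058). Counted against 2 h with an adjusted p under 0.05 and at least a 1.5-fold change, 50 of 80 tests of a member at a later hour were called in WT (13 higher, 37 lower; background 41.6%) and 30 of 80 in PkmΔDRE (9 higher, 21 lower; background 29%). Most genes changed in culture, so these shares are read against a high background.

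**Figure D1:**
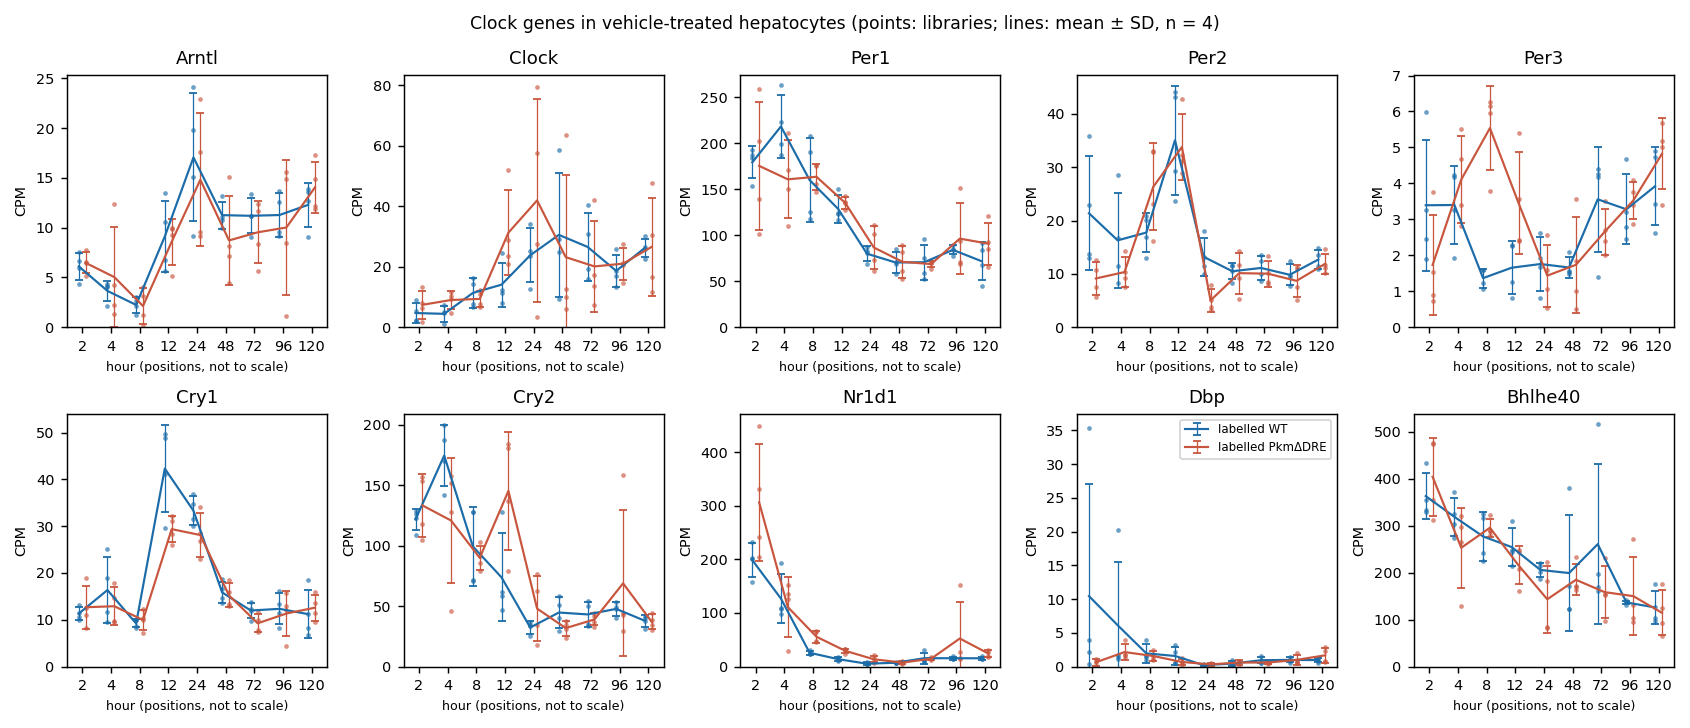
CPM of the 10 clock genes (vertical axes, linear, each from 0) at the 9 hours (horizontal axes, equal spacing, not to scale) in vehicle-treated hepatocytes; points are libraries and lines join group means with SD (n = 4), blue for libraries labelled WT and red for PkmΔDRE. Nr1d1 dropped from means of 199 and 306 CPM at 2 h to 5.28 and 13.5 CPM at 24 h, and Cry1 and Per2 peaked around 12 h.

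In WT no member was called at 4 h (background 2.89%), while 4 were after 8 h (31.9%), 6 after 12 h (35.6%), 8 after 24 h (45.8%), 9 after 48 h (51.5%), 7 after 72 h (53.8%), 8 after 96 h (53.6%) and 8 after 120 h (57.9%). In PkmΔDRE none was called at 4 h (3.86%), while 3 were after 8 h (11%), 4 after 12 h (24.1%), 6 after 24 h (33.2%), 4 after 48 h (37.5%), 4 after 72 h (42.3%), 3 after 96 h (30.8%) and 6 after 120 h (49.4%). From one hour to the next, 13 of 80 steps were called in WT (5.53%). Of these, 4 ended at 8 h (19%), 3 at 12 h (5.87%), 5 at 24 h (7.34%) and the last at 48 h (8.06%), with none at 72, 96 or 120 h (0.517%, 0.561% and 0%). In PkmΔDRE 1 of 80 steps was called (1.11%), the drop of Per2 between 12 and 24 h (0.369%), and none in the step to 120 h (2.45%). Without the replicates 4 of 4 and 96 h, 7 steps were called in PkmΔDRE.

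**Figure D2:**
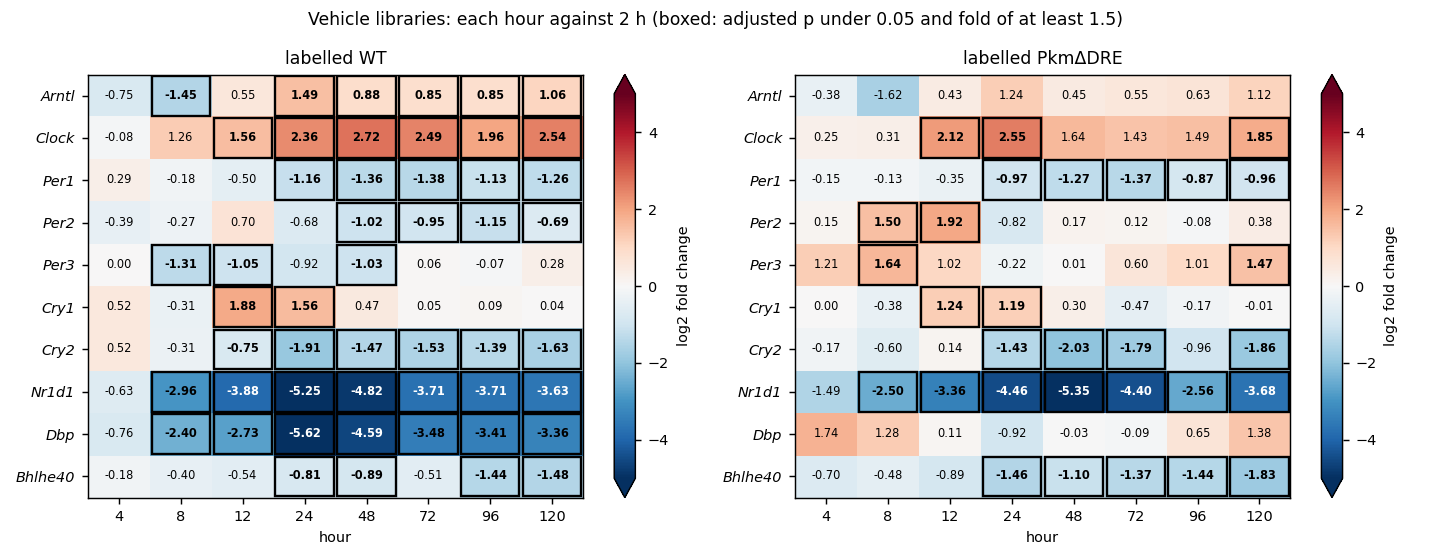
Log2 fold change of each clock gene (rows) at each later hour against 2 h (columns) in vehicle libraries labelled WT (left) and PkmΔDRE (right), red for higher and blue for lower; boxed values were called (adjusted p under 0.05, at least 1.5-fold). The boxed Nr1d1 values ran from -2.50 to -5.35, and Clock was boxed in red from 12 h and Arntl from 24 h in WT.

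Among the activators, Arntl first dropped and then rose. In WT it was 7.52, 5.90, 4.33 and 6.68 CPM at 2 h, 2.63, 1.22, 3.00 and 2.11 CPM at 8 h, and 24.2, 15.1, 19.8 and 9.18 CPM at 24 h. The 3 hours did not overlap, with 8 h lowest and 24 h highest. The log2 fold change against 2 h was -1.45 ± 0.31 (SE) at 8 h (edgeR adjusted p = 0.00039) and 1.49 ± 0.30 at 24 h (adjusted p = 9.8e-05), and group means stayed between 11.2 and 12.3 CPM from 48 to 120 h.

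In PkmΔDRE the same hours gave 6.52, 6.41, 5.17 and 7.75 CPM, then 3.15, 4.01, 1.23 and 0.140 CPM, then 9.58, 22.9, 17.6 and 9.14 CPM for Arntl, again without overlap. The fold change was -1.62 ± 0.66 at 8 h (edgeR adjusted p = 0.11) and 1.24 ± 0.64 at 24 h (adjusted p = 0.13). Without the replicates 4 of 4 and 96 h, that at 8 h was -1.60 and was called (adjusted p = 0.027).

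Clock, the partner of ARNTL, rose with a wide spread between libraries. It was 2.03, 2.24, 9.03 and 5.48 CPM at 2 h and 23.4, 34.1, 25.1 and 12.5 CPM at 24 h in WT, which did not overlap. It was called higher from 24 h on, by 1.96 to 2.72 on the log2 scale (at 24 h 2.36 ± 0.52, edgeR adjusted p = 0.00035), and already at 12 h, by 1.56 (adjusted p = 0.015), a call lost in 3 of 36 fits that left out a library. In PkmΔDRE the 4 libraries at 24 h spread from 3.24 to 79.3 CPM against 1.85 to 13.2 CPM at 2 h and overlapped them. Clock was called there at 12, 24 and 120 h, at 2.12, 2.55 and 1.85 on the log2 scale, and the calls at 12 and 120 h were each lost in 4 of 36 fits that left out a library. Most of the 36 fits left out a library of neither hour compared, which enters a comparison only through the shared fit. Counts out of 36, here and below, therefore understate how far a call depends on single libraries of its own hours.

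Nr1d1, the repressor of Arntl, had the most negative change of any member other than Dbp. In WT it was 203, 158, 233 and 201 CPM at 2 h, 194, 107.5, 108.7 and 97.2 CPM at 4 h, 25.8, 31.4, 22.7 and 23 CPM at 8 h, and 3.94, 4.41, 3.87 and 8.89 CPM at 24 h. From 8 h on, no library reached the level of any library at 4 h. Against 2 h the log2 fold change was -2.96 ± 0.31 at 8 h (edgeR adjusted p = 5.3e-09) and -5.25 ± 0.34 at 24 h (adjusted p = 6.6e-14). Between 72 and 120 h the group means were 15.4 to 15.5 CPM, higher than at 24 and 48 h but still -3.63 to -3.71 on the log2 scale against 2 h.

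In PkmΔDRE, Nr1d1 was 448, 204, 331 and 242 CPM at 2 h, 47, 66.2, 45.1 and 64.1 CPM at 8 h, 20.8, 10.8, 7.18 and 15.5 CPM at 24 h and 7.84, 3.89, 10.3 and 7.38 CPM at 48 h. The fold change was -4.46 ± 0.59 at 24 h (edgeR adjusted p = 2e-06) and -5.35 ± 0.61 at 48 h (adjusted p = 3.7e-07). At 96 h the mean was 52.4 ± 67.2 CPM with, and 18.9 ± 7.30 CPM without, replicate 4, whose own value was 153 CPM. The log2 fold change at 96 h was -2.56 with and -4.04 without the replicates 4 of 4 and 96 h.

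**Figure D3:**
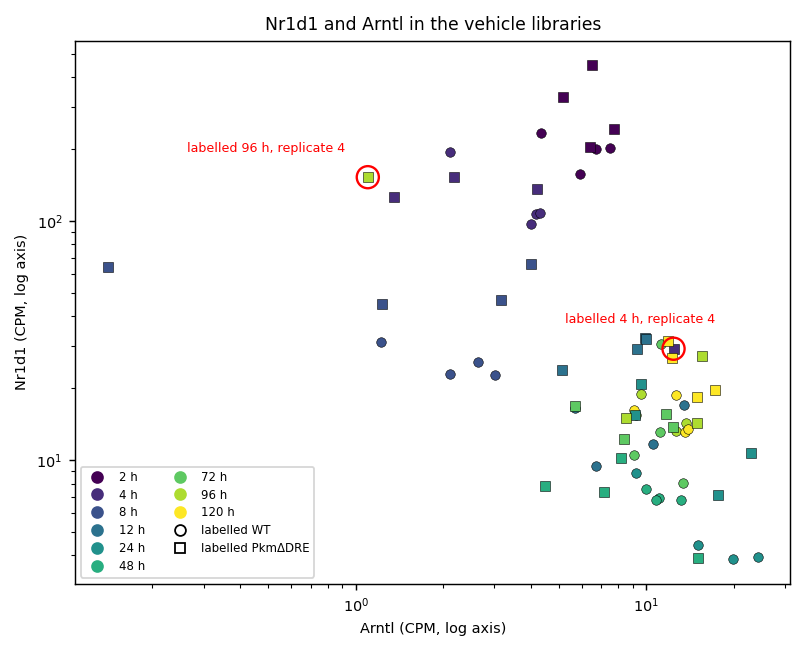
Nr1d1 (vertical axis) against Arntl (horizontal axis), both in CPM on log axes, in the vehicle libraries, coloured by labelled hour, with circles for WT and squares for PkmΔDRE. Apart from the 2 ringed libraries, those of 2 and 4 h lie between 97.2 and 448 CPM Nr1d1 and those of 12 h and later at or below 32.4 CPM. The ringed libraries, at 12.4 CPM Arntl with 29.3 CPM Nr1d1 (labelled 4 h) and 1.10 CPM with 153 CPM (labelled 96 h), lie among the other hours.

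Of the Period genes, which encode one arm of the repressor complex, Per1 declined. In WT it was 192, 187, 184 and 154 CPM at 2 h and 87.6, 81.2, 68.7 and 82.6 CPM at 24 h, with no overlap. The log2 fold change was -1.16 ± 0.20 at 24 h (edgeR adjusted p = 1.1e-05) and between -1.13 and -1.38 at every later hour. In PkmΔDRE the values of 24 h (101.8, 72.8, 61.5 and 110.8 CPM) overlapped those of 2 h (260, 139.1, 202 and 101.05 CPM), with a fold change of -0.97 ± 0.27 (adjusted p = 0.0068).

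Per2 peaked at 12 h. In WT it was 43.2, 44.1, 29.2 and 23.7 CPM at 12 h and 13.3, 9.97, 18.1 and 11.5 CPM at 24 h, without overlap, a step of -1.38 ± 0.30 on the log2 scale (edgeR adjusted p = 0.0032). In PkmΔDRE it was 10.8, 7.62, 12.5 and 5.68 CPM at 2 h, 32.2, 42.8, 28.96 and 31.2 CPM at 12 h and 3.19, 3.75, 8.00 and 5.19 CPM at 24 h. The rise to 12 h was 1.92 ± 0.34 (adjusted p = 0.00015), and the step down to 24 h was -2.74 ± 0.35 (adjusted p = 1e-04). In WT the 12 h libraries overlapped those of 2 h, which spread from 13.02 to 35.9 CPM, and the fold change of 0.70 ± 0.30 was not called (adjusted p = 0.061). The falls called in WT from 48 h on also depended on single libraries. In fits that left out a library, the call was lost in 1 of 36 at 48 h and at 72 h. At 120 h it was lost in 7 of 36 (edgeR adjusted p up to 0.34), and those libraries, at 10.8 to 14.9 CPM, overlapped the ones of 2 h. The call at 96 h was kept in all 36.

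Per3, the scarcest Period gene, moved in opposite directions under the 2 labels at 8 h. In WT it was 3.25, 2.44, 5.99 and 1.88 CPM at 2 h and 1.24, 1.06, 1.59 and 1.58 CPM at 8 h, a log2 fold change of -1.31 ± 0.42 (edgeR adjusted p = 0.016). In PkmΔDRE it was 0.889, 3.77, 1.54 and 0.721 CPM at 2 h and 3.79, 6.26, 6.15 and 5.96 CPM at 8 h, a change of 1.64 ± 0.51 (adjusted p = 0.032). Neither pair of hours overlapped, although in PkmΔDRE the nearest libraries were 3.77 and 3.79 CPM. Without replicate 3 of 2 h the change in WT was -0.90 and was not called (adjusted p = 0.12), and that in PkmΔDRE lost its call in 6 of 36 fits that left out a library (adjusted p up to 0.12). The difference between these changes was not tested. The vehicle libraries at 8 h did not overlap between labels, with a difference of 2.01 ± 0.38 on the log2 scale (PkmΔDRE minus WT) that missed the threshold in edgeR (adjusted p = 0.083).

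The cryptochromes, the other arm of the repressor complex, moved apart. Cry1 in WT was 13.2, 11.4, 10.7 and 10.0 CPM at 2 h, 41.1, 49.8, 48.8 and 29.6 CPM at 12 h and 31.6, 36.8, 34.8 and 30.02 CPM at 24 h, with both later hours above the first. The log2 fold change was 1.88 ± 0.26 at 12 h (edgeR adjusted p = 8.1e-07) and 1.56 ± 0.26 at 24 h (adjusted p = 8.1e-06), and group means were back at 11.2 to 12.3 CPM from 72 to 120 h. In PkmΔDRE Cry1 was 31.1, 28.3, 32.1 and 25.9 CPM at 12 h against 8.20, 12.4, 11 and 19 CPM at 2 h, a change of 1.24 ± 0.30 (adjusted p = 0.0038) without overlap.

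Cry2 was 109.1, 125.97, 123.1 and 128.4 CPM at 2 h and 36.4, 33.3, 25 and 34.4 CPM at 24 h in WT, without overlap. Its log2 fold change was -1.91 ± 0.24 at 24 h (edgeR adjusted p = 8.7e-08) and -1.39 to -1.63 at the later hours. In PkmΔDRE it was 154, 117.7, 157 and 104.6 CPM at 2 h and 76.8, 62.6, 17.9 and 34.4 CPM at 24 h, also without overlap, and fell by 1.43 (SE 0.41, adjusted p = 0.0094). At 96 h the change was -0.96 (adjusted p = 0.07) with and -1.80 (adjusted p = 4.8e-05) without the replicates 4 of 4 and 96 h.

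Bhlhe40 was called lower from 24 h on under both labels, except at 72 h in WT. In the WT libraries it was 334, 330, 435 and 354 CPM at 2 h and 136.8, 131.7, 137.3 and 141.003 CPM at 96 h, without overlap, a log2 fold change of -1.44 ± 0.29 (edgeR adjusted p = 7.9e-05). At 48 and 72 h replicate 3 stood at 380 and 516 CPM, while the other libraries were at 122.5 to 197 CPM. In PkmΔDRE it was 476, 312, 475 and 354 CPM at 2 h and 92.5, 64.8, 124.1 and 177 CPM at 120 h, a change of -1.83 ± 0.35 (adjusted p = 0.00012).

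Dbp was near the limit of detection outside a few libraries. WT vehicle libraries held 2.13, 0.305, 35.4 and 3.94 CPM at 2 h, 1.44, 1.10, 20.3 and 1.66 CPM at 4 h, and 0.170, 0, 0.295 and 0.353 CPM at 24 h. Replicate 3 alone exceeded 4 CPM in these vehicle groups, and Per2 was also highest in those libraries, at 35.9 and 28.6 CPM. Under TCDD the libraries labelled WT held 0.876, 0.900, 34.8 and 34.95 CPM of Dbp at 2 h and 1.34, 1.90, 16.1 and 10.2 CPM at 4 h. In PkmΔDRE no vehicle library exceeded 3.89 CPM. The log2 fold change against 2 h in WT was -5.62 ± 1.11 at 24 h (edgeR adjusted p = 9.4e-05), and Dbp was called at all 7 hours from 8 h on. Without replicate 3 of 2 h only the calls at 24 h (-3.36, adjusted p = 0.0044) and 48 h (-2.33, adjusted p = 0.031) were left, and the value at 8 h moved from -2.40 to -0.14. Dbp gave no called change against 2 h in PkmΔDRE.

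After 24 h the harvests were spaced by multiples of 24 h, so a daily rhythm cannot be seen in the later hours. Over the same hours the summed hepatocyte markers (8 genes, among them Alb and Cyp2e1) dropped from 137275 to 176033 CPM at 2 h to 2765 to 15940 CPM at 120 h in WT vehicle libraries. Summed cholangiocyte markers (5 genes) went in mean from 99.1 to 743 CPM and stellate and fibroblast markers (7 genes) from 11.1 to 88.3 CPM. Endothelial markers (6 genes) went in mean from 395 to 64.5 CPM and Kupffer and macrophage markers from 247 to 65.1 CPM, while blood cell markers (5 genes) stayed at or below 4.54 CPM in all libraries. Whether these changes in cell state or composition take part in the clock gene changes was not tested, and fewer cells of a type cannot be told apart from less RNA per cell in these bulk samples.

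Over the 36 group means of log2 CPM, Per1 and Cry2 varied most alike (Pearson r = 0.92), Nr1d1 followed Cry2 (r = 0.83) and Per1 (r = 0.80), and Clock ran opposite to Nr1d1 (r = -0.78) and Per1 (r = -0.77). Per2 followed none of these (r between -0.17 and 0.42 with the other 9 members). The groups share the time course, so the coefficients describe it and are not tests. Over the same means and 11559 genes, those most like Arntl were Msi2 (r = 0.86), Smyd3 (r = 0.86) and Trp53i11 (r = 0.85), and among those most like Dbp were Grik5 (r = 0.81) and Daam2 (r = 0.76).

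Of 23 further clock genes on 5 lists, all tested, 5 were higher and 10 lower at 24 h against 2 h in WT (background 45.8% in either direction), with a median log2 fold change of -0.45 beside 0.18 over all genes. In PkmΔDRE 2 were higher and 8 lower (background 33.2%). Among other repressors, Ciart, a partner of the loop that opposes ARNTL, was 11.9 to 19.1 CPM at 2 h and 0.589 to 0.748 CPM at 24 h in WT, a change of -4.52 ± 0.57 (edgeR adjusted p = 6.2e-08). Bhlhe41, the paralog of Bhlhe40, changed by -2.57 ± 0.44 and Nfil3, which represses D-box genes, by -1.24 ± 0.24. Of the activators, Arntl2 and Npas2, paralogs of Arntl and Clock, rose in WT by 2.65 ± 0.54 and 2.22 ± 0.51. Tef, a relative of Dbp, changed by -2.23 ± 0.25, and Wee1, a cell cycle kinase gene under clock control, by -2.60 ± 0.30. Timeless rose by 2.79 ± 0.49. In PkmΔDRE at 24 h Ciart (-3.66), Bhlhe41 (-3.09), Nfil3 (-0.75), Tef (-1.22), Wee1 (-2.21) and Timeless (2.37) were called in the same directions, and Arntl2 (1.35, adjusted p = 0.09) and Npas2 (0.08, adjusted p = 0.94) were not called.

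TCDD changed few clock genes, and Per2 was the one that rose under both labels. Each hour compared 4 TCDD with 4 vehicle libraries. In WT 7 of 88 tests of a member at an hour were called, all higher (background 5.98%), and in PkmΔDRE 2 of 88, both higher (0.281%), both of Per2. Dbp passed the filter on low counts in neither label at 24 h, nor at 48 h in WT or 2 h in PkmΔDRE. By hour, the WT calls were 4 at 8 h (background 37.4%), 2 at 96 h (15.1%) and 1 at 120 h (1.46%), and the PkmΔDRE calls 1 at 72 h (1.13%) and 1 at 120 h (0.633%). At the other hours no member was called, with backgrounds of up to 0.373% in WT (at 24 h, against 0.0321% at 12 h and 0.00763% at 48 h) and up to 0.404% in PkmΔDRE (at 48 h, against 0.024% at 12 h). In 21 of 176 comparisons the TCDD and vehicle libraries of a tested member did not overlap, 12 with TCDD above (background 3.6%) and 9 below (4.71%), and 8 of the 12 were Per2. These backgrounds pool all hours and differed widely between them. With TCDD above, 2279 of 12392 genes did not overlap at 8 h in WT and 1636 of 13793 at 96 h.

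**Figure D4:**
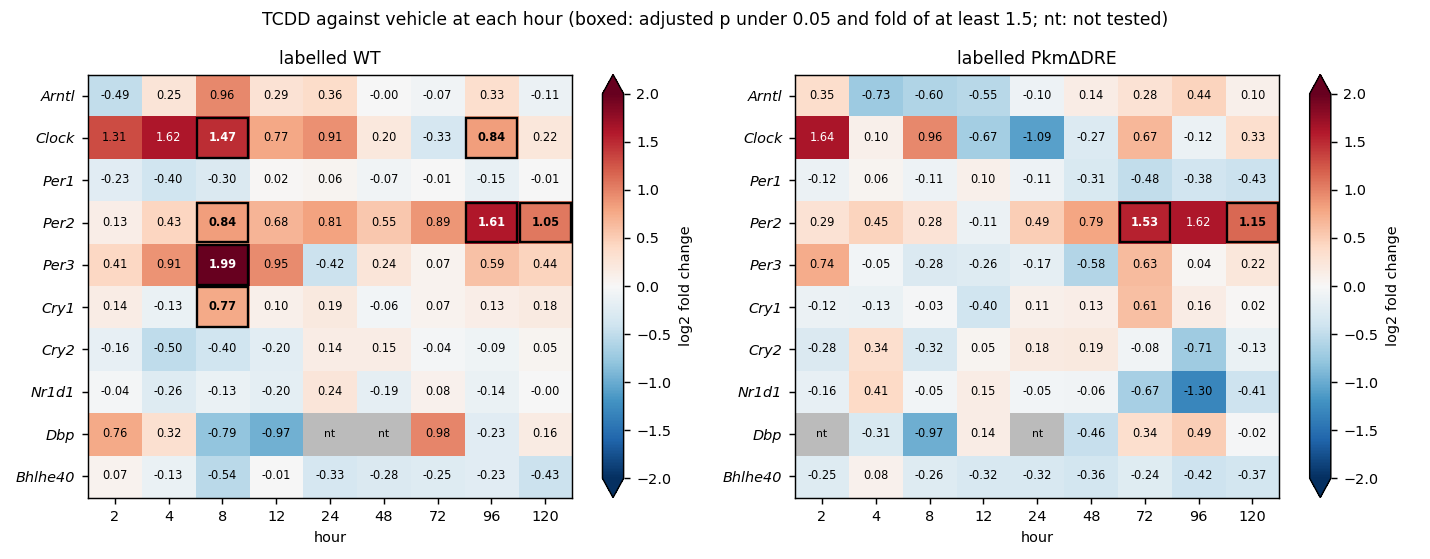
Log2 fold change of TCDD against vehicle for each clock gene (rows) at each hour (columns) in libraries labelled WT (left) and PkmΔDRE (right), red for higher and blue for lower; boxed values were called (adjusted p under 0.05, at least 1.5-fold) and nt marks a gene not tested. Boxes fall on Per2 at late hours under both labels and on Clock, Per2, Per3 and Cry1 at 8 h in WT.

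At 72 h and later Per2, the gene of this set with the most calls, stood at 1.85 to 3.07 times its vehicle level by the fitted fold changes. At 72 h in PkmΔDRE it was 13.4, 8.08, 10.2 and 8.48 CPM in vehicle and 30.5, 29.99, 32.2 and 24.5 CPM in TCDD libraries, without overlap. Its log2 fold change was 1.53 ± 0.24 (edgeR adjusted p = 0.0078). At 120 h the values were 10.2, 14.6, 11.6 and 11.1 CPM against 30.7, 30.3, 23.8 and 20.5 CPM, again without overlap, a change of 1.15 ± 0.21 (adjusted p = 0.043). That last call was kept in 1 of 8 fits that left out a library (adjusted p up to 0.14), while the one at 72 h was kept in 8 of 8.

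At 96 h in PkmΔDRE, Per2 was 7.63, 10.8, 11.3 and 5.03 CPM in vehicle and 28.8, 37.8, 25.6 and 17 CPM in TCDD libraries, which did not overlap. The change of 1.62 ± 0.32 was not called (edgeR adjusted p = 0.21). Without the vehicle replicate 4 it was 1.39 and was called (adjusted p = 0.022).

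In WT, Per2 at 96 h was 9.47, 7.71, 12.4 and 9.70 CPM in vehicle and 30.5, 28.3, 26.7 and 26.7 CPM in TCDD libraries, without overlap, a log2 fold change of 1.61 ± 0.14 (edgeR adjusted p = 7e-05). It was 1.74 without the vehicle library of high Cyp1a1, whose 12.4 CPM was the highest of the vehicle group. At 120 h the libraries held 10.8, 14.9, 13.5 and 11.5 CPM against 24.7, 26.8, 31.5 and 26.1 CPM, without overlap, a change of 1.05 ± 0.13 (adjusted p = 0.0033). Both calls were kept in 8 of 8 fits that left out a library.

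At 72 h in WT, Per2 was 13.5, 12.4, 9.90 and 8.65 CPM in vehicle and 26.3, 15.2, 27 and 13.8 CPM in TCDD libraries, just without overlap, and its change of 0.89 ± 0.28 was not called (edgeR adjusted p = 1). The lowest TCDD library was replicate 4, whose Cyp1a1 was also low, and without it the change was 1.02 (adjusted p = 0.45). Per2 also did not overlap at 12 and 24 h in WT, with changes of 0.68 and 0.81 that were not called.

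**Figure D5:**
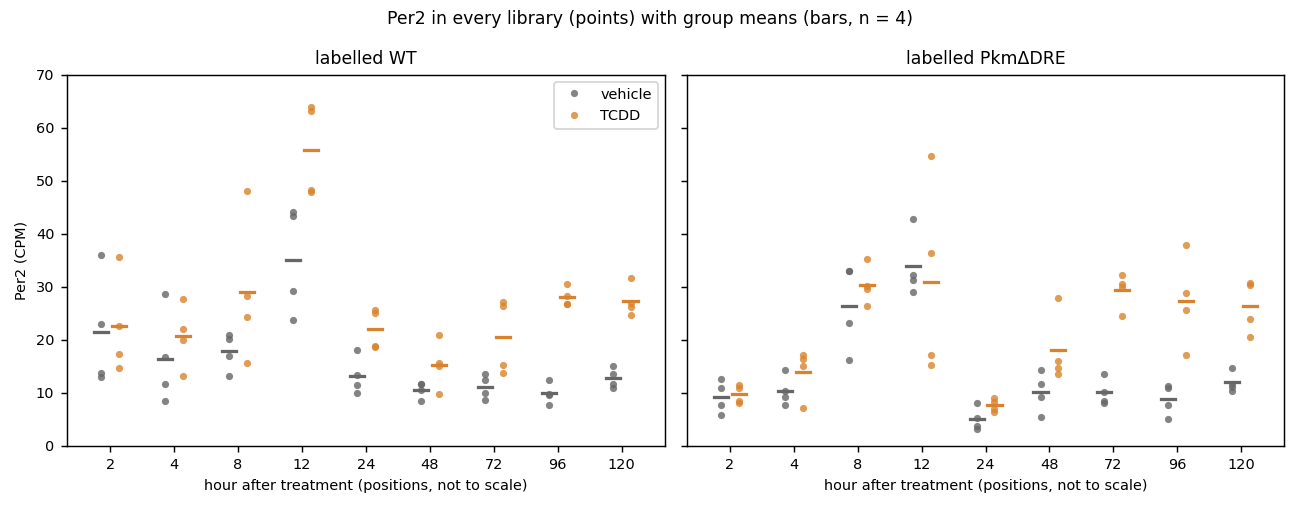
Per2 in CPM (vertical axis, from 0) in every library (points) at the 9 hours (horizontal axis, equal spacing) for vehicle (grey) and TCDD (orange), with group means as bars (n = 4), in libraries labelled WT (left) and PkmΔDRE (right). At 96 and 120 h the TCDD libraries sit between 17 and 37.8 CPM and the vehicle libraries between 5.03 and 14.9 CPM.

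Averaged over the 9 hours, Per2 was higher under TCDD by 0.73 ± 0.10 on the log2 scale in WT (edgeR adjusted p = 1.4e-07) and by 0.70 ± 0.11 in PkmΔDRE (adjusted p = 3.2e-06). Without the libraries against their labels these means were 0.77 and 0.68, and without 96 h that in PkmΔDRE was 0.58 (adjusted p = 0.00049), short of the fold change. By this mean, 2 members were called in WT (background 9.17%) and 1 in PkmΔDRE (2.12%). The other in WT was Clock, at 0.73 ± 0.17 (adjusted p = 0.00096), or 0.54 (adjusted p = 0.034) and no longer called with a covariate for the pairs assigned to no gene. Per3 at 0.53, Per1 at -0.16 and Bhlhe40 at -0.28 passed the adjusted p in WT (0.0021, 0.028 and 0.023) without reaching the fold change. Marker levels moved with treatment in the late cultures, as the summed cholangiocyte markers were 538 to 977 CPM in vehicle and 315 to 506 CPM in TCDD libraries at 120 h in WT, and 696 to 1199 CPM and 518 to 736 CPM in PkmΔDRE at 120 h, where they overlapped, and 897 to 1076 CPM and 401 to 687 CPM at 72 h. In PkmΔDRE at 120 h, 4.06 to 6.68% of read pairs were unmapped in vehicle and 2.204 to 2.48% in TCDD libraries. At 96 h there the shares were 4.297 to 11.1% and 1.96 to 2.896%, and neither hour overlapped. At 72 h in WT the share was higher under TCDD, 3.97 to 5.49% in vehicle against 5.53 to 7.05%, without overlap. The shares overlapped at 72 h in PkmΔDRE and at 96 and 120 h in WT. The part of markers and unmapped pairs in the Per2 result was not tested.

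At 8 h in WT, 37.4% of all genes were called, and 23.8% were called higher. The 4 of 10 members called there, all higher, are near the share in either direction and above that called higher. With 10 members this count is not read as a result about the clock genes. Per3 was 1.24, 1.06, 1.59 and 1.58 CPM in vehicle and 4.07, 5.74, 7.47 and 2.71 CPM in TCDD libraries, without overlap, a log2 fold change of 1.99 ± 0.40 (edgeR adjusted p = 0.0024). Clock was 6.73, 7.74, 16.4 and 14.4 CPM against 16.5, 35.2, 28.3 and 34.8 CPM, with 1.47 ± 0.32 (adjusted p = 0.0037), and its groups were separated narrowly. Both were kept in 8 of 8 fits that left out a library. Per2 (0.84, adjusted p = 0.037) and Cry1 (0.77, adjusted p = 0.035) overlapped between treatments and were kept in 3 and 2 of 8 such fits. Bhlhe40 was lower without overlap, at 224 to 325 CPM in vehicle and 137.04 to 193 CPM in TCDD libraries, with -0.54 ± 0.16 (adjusted p = 0.017), short of the fold change.

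The same 8 libraries differed in their markers. Summed hepatocyte markers were 81702 to 99529 CPM in vehicle and 66073 to 71173 CPM in TCDD libraries, and Kupffer and macrophage markers (7 genes) 182 to 227 CPM and 62.7 to 126.9 CPM, neither overlapping. Signs of library quality moved as well. Of the uniquely mapped pairs, 4.89 to 5.99% lay on no gene in vehicle and 8.36 to 21.9% in TCDD libraries, and 15401 to 17203 and 18337 to 20626 genes were detected, with no overlap in either. TCDD replicate 1 had 23.6% unmapped pairs against 7.32 to 10.4% in the other 3, and replicates 3 and 4 were nearest to 12 h over all genes. The part of markers and library quality in the clock gene values at 8 h was not tested. In PkmΔDRE at 8 h no member was called (background 0.106%), and Per3 was 3.79, 6.26, 6.15 and 5.96 CPM in vehicle and 2.72, 4.82, 4.02 and 5.46 CPM in TCDD libraries.

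The remaining WT call was Clock at 96 h, with 18.5, 25.8, 16.9 and 13.2 CPM in vehicle and 37.9, 29.7, 27.1 and 30.1 CPM in TCDD libraries, without overlap. Its log2 fold change was 0.84 ± 0.20 (edgeR adjusted p = 0.0095), kept in 8 of 8 fits that left out a library and 0.79 without the vehicle library of high Cyp1a1. In the same WT libraries Kupffer and macrophage markers were 67.9 to 96.8 CPM in vehicle and 51.4 to 65.5 CPM under TCDD, and endothelial markers 69.03 to 79.3 CPM and 41.2 to 58.6 CPM, neither overlapping, and their part in the calls at 96 h was not tested. In PkmΔDRE at 96 h Clock was 27.5, 21.4, 20.6 and 14.6 CPM in vehicle and 19.9, 16.7, 11.9 and 29.8 CPM in TCDD libraries, which overlapped.

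Nr1d1, Cry2, Per1, Arntl, Dbp and Bhlhe40 were called at no hour under either label with TCDD. The 9 comparisons counted above with TCDD below vehicle and no overlap were all of these members. They were Bhlhe40 at 8, 24 and 96 h in WT and at 8 h in PkmΔDRE, and Cry2 at 4 h in WT. The others were Per1 at 4 and 96 h in WT, and Per1 and Nr1d1 at 72 h in PkmΔDRE. That Nr1d1 comparison had 12.3 to 16.9 CPM in vehicle and 8.26 to 10.4 CPM in TCDD libraries. Such separation was common at some hours. In WT, 3052 of 12392 genes lay below without overlap at 8 h and 3142 of 13793 at 96 h, against 808 of 12434 at 4 h and 753 of 12858 at 24 h. In PkmΔDRE it was 181 of 12293 genes at 8 h and 372 of 13621 at 72 h. Nr1d1 had the widest range of group means over time in PkmΔDRE and, apart from Dbp, in WT. Its TCDD changes lay between -0.26 and 0.24 on the log2 scale in WT and between -1.30 and 0.41 in PkmΔDRE. The value of -1.30 at 96 h included the vehicle replicate 4 and was 0.18 without it.

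Of the 23 further clock genes, TCDD changed 5 at 8 h in WT (3 higher, 2 lower; background 37.4%), 3 at 96 h (1 higher, 2 lower; 15.1%), 2 at 120 h (1 higher, 1 lower; 1.46%), and 1 at 72 h in PkmΔDRE (1.13%). The share at 8 h was below and that at 96 h near the background. At 8 h in WT these included Nampt, which makes NAD, at 1.51 ± 0.29 on the log2 scale, Nr1d2, the paralog of Nr1d1, at 1.42 ± 0.26, Nfil3 at -0.67 ± 0.18 and Alas1, of heme synthesis, at -0.60 ± 0.13. Noct, an output gene also known as nocturnin, was lower in the late cultures. It was 45.7 to 54 CPM in vehicle and 23.2 to 34.9 CPM in TCDD libraries at 96 h in WT (-0.63 ± 0.12, edgeR adjusted p = 0.0035, and -0.67 without the vehicle library of high Cyp1a1), and 30.6 to 69.2 CPM and 16 to 23.4 CPM at 72 h in PkmΔDRE (-1.31 ± 0.27, adjusted p = 0.037), without overlap in either. At 120 h in WT, Noct changed by -1.01 ± 0.21 (adjusted p = 0.047), and Por, the electron donor of the cytochromes P450, by 1.52 ± 0.13 (adjusted p = 0.00047).

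The response to TCDD was not shown to differ between the labels. The difference in the TCDD effect (PkmΔDRE minus WT, 16 libraries an hour) was called for 0 of 89 tests of a member by edgeR (background 0.0016%), with 5 at an unadjusted p under 0.05. The smallest p was that of Per3 at 8 h, with -2.40 ± 0.51 on the log2 scale (adjusted p = 0.29), which DESeq2 called (adjusted p = 0.038). The others were Cry1 at 8 h and Clock at 12, 24 and 96 h.

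Between the labels in vehicle, 1 of 89 tests was called (background 0.407%), with 14 at an unadjusted p under 0.05. It was Nr1d1 at 12 h (background 3.68% at that hour), with 11.7, 9.45, 17.1 and 16.6 CPM in WT and 32.4, 23.8, 32.02 and 29.3 CPM in PkmΔDRE, without overlap. The log2 difference was 1.15 ± 0.23 (edgeR adjusted p = 0.027), kept in 4 of 8 fits that left out a library. At 8 h Nr1d1 was 22.7 to 31.4 CPM in WT and 45.1 to 66.2 CPM in PkmΔDRE, also without overlap, with 1.11 ± 0.22 (adjusted p = 0.083).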

How the data were processed

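RNA was sequenced from 144 libraries of hepatocytes, 4 in each of 36 groups set by genotype label, treatment and hour; replicate numbers follow accession order and only name a library. The authors trimmed paired reads with Trimmomatic 0.39, aligned them to GRCm39 with STAR 2.7 and deposited raw gene counts, of which the unstranded column was used here, so overlapping antisense genes cannot be told apart. Between 16.8% and 48.0% of pairs (median 24.2%) were on lines naming no gene and were left out.

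Differences were tested with edgeR 4.0.16 (quasi-likelihood, TMM scaling) in R 4.3.3, on genes passing filterByExpr (minimum count 10, minimum total 15), with Benjamini-Hochberg adjustment over all genes tested in a comparison. A call needed an adjusted p under 0.05 and at least a 1.5-fold change, and the F test over hours needed the adjusted p alone. One fit over the 36 vehicle libraries of a label served the time course, with 9 hours as groups; TCDD was compared with vehicle hour by hour on 8 libraries, and by the mean over hours in a fit over 72 libraries of the label. The difference between labels in the TCDD effect used the 16 libraries of an hour, and that in vehicle the 8 vehicle libraries. All comparisons of an hour with 2 h share the libraries of 2 h. CPM were scaled by TMM across all 144 libraries. Scripts were tested on simulated counts. Alternatives were DESeq2 1.42.0, another scaling, no filter, no fold threshold, a covariate for the share of pairs assigned to no gene and fits without named libraries or 1 library at a time.

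The 10 members and the lists (5 of other clock genes, 1 each of hepatocyte, cholangiocyte, stellate and fibroblast, Kupffer and macrophage, endothelial and blood cell markers) were chosen with earlier results of these data known. All members were named. Of the other clock genes those called were named, at most 4 a list and the largest change first, and the 3 genes most like Arntl and Dbp had a mean of at least 1 CPM; some genes that these rules select are not reported here. Symbols and exon lengths came from GENCODE M21 on GRCm38 and promoter windows from RefSeq GRCm38.p6.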

Additional observations from a re-analysis of the deposited data

Results flagged for a closer look

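In 29 of 360 groups of 4 libraries, 1 library stood far from the other 3 by Dixon's test, which chance does in about 1 of 20 groups. All values below are CPM.

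Several of these libraries recur. The vehicle library labelled PkmΔDRE 96 h replicate 4, nearest to 4 h over all genes, held 159 CPM of Cry2 (others 29.4 to 44.2) and 153 CPM of Nr1d1 (others 14.3 to 27.3). Replicate 3 of WT TCDD 72 h held 8.63 CPM of Per3 (others 1.57 to 2.50), 6.01 CPM of Dbp (others 0.173 to 1.03) and 420 CPM of Bhlhe40 (others 137.05 to 167), and replicate 3 of WT vehicle 72 h held 516 CPM of Bhlhe40 (others 161 to 197). Replicate 3 of WT TCDD 120 h held 98.7 CPM of Per1, 2.98 CPM of Per3 and 22.1 CPM of Cry1, against 63.9 to 68.1, 6.17 to 6.69 and 9.12 to 11.1 CPM. Replicate 1 of WT vehicle 4 h held 194 CPM of Nr1d1 (others 97.2 to 108.7) and 2.11 CPM of Arntl (others 4.0 to 4.3).

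Dbp reached 35.4 CPM in WT vehicle 2 h replicate 3 and 20.3 CPM in WT vehicle 4 h replicate 3. In the remaining groups it was 0.155 CPM in WT TCDD 24 h replicate 4, 2.07 CPM in PkmΔDRE vehicle 96 h replicate 3, 4.83 CPM in PkmΔDRE TCDD 4 h replicate 1 and 1.32 CPM in PkmΔDRE TCDD 24 h replicate 4. Clock reached 63.7 CPM in PkmΔDRE vehicle 48 h replicate 2, where the others were at 6.17 to 12.7 CPM. Per1 reached 239 and 189 CPM in replicates 1 of PkmΔDRE TCDD 2 and 8 h.

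Per3 stood apart at 2.08 CPM in WT vehicle 48 h replicate 1, 1.38 CPM in WT vehicle 72 h replicate 4, 9.38 CPM in WT TCDD 4 h replicate 4, 3.79 CPM in PkmΔDRE vehicle 8 h replicate 1 and 6.33 CPM in PkmΔDRE TCDD 4 h replicate 2. The last values were 5.13 CPM of Arntl in PkmΔDRE vehicle 12 h replicate 2, 32.6 CPM of Cry2 in PkmΔDRE TCDD 48 h replicate 4, 8.89 CPM of Nr1d1 in WT vehicle 24 h replicate 4 and 234 CPM of Bhlhe40 in PkmΔDRE vehicle 48 h replicate 1.

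Per3 in vehicle moved apart between the labels from 2 to 8 h, by -1.31 on the log2 scale in WT and by 1.64 in PkmΔDRE, with every library of 8 h beyond every library of 2 h in each direction. The difference was not tested.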

How the results depend on the processing

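Of 4179 alternative values of 120 single results, 4030 kept their direction and side of the threshold, 140 lost the call, 4 gained it and 5 changed sign. The 120 were chosen as those called and Per2 under TCDD, so few of them could gain a call. Most fits of the time course left out a library of neither hour compared, which could hardly move a value. The count of 4030 is therefore no measure of how firm the calls are. The sign changes arose by leaving out a library, in values of TCDD against vehicle for Per2 that were not called, with ranges of -0.21 to 0.48 at 2 h in WT and -0.57 to 0.11 at 12 h in PkmΔDRE. Leaving out 1 library at a time, calls against 2 h ranged from 38 to 53 in WT and 25 to 35 in PkmΔDRE, hourly steps from 10 to 15 and 1 to 5, TCDD calls by hour from 5 to 7 and 1 to 4, members changing over the hours in PkmΔDRE from 8 to 10, and label differences from 0 to 1 in the TCDD effect and 0 to 3 in vehicle. The steps in PkmΔDRE (1) became 8 with DESeq2, 5 with a covariate for the pairs assigned to no gene and 7 without the vehicle replicates 4 of 4 and 96 h, an alternative added after seeing the data. The TCDD calls by hour in PkmΔDRE (2) became 4 with DESeq2. By the mean over hours, the 2 calls in WT became 5 without the fold threshold and 1 (Per2) with the covariate, and the 1 in PkmΔDRE, Per2, became 0 without 96 h (0.58 on the log2 scale). Label differences in the TCDD effect (0) became 1 with no filter on low counts and 1 with DESeq2, and those in vehicle (1) became 4 with no filter, 5 with DESeq2 and 3 with the covariate. For the moved counts the cause was not tested. Under the scaling of DESeq2's size factors the members' log2 values against 2 h shifted by a median of -0.14 at 24 h in WT. No paired analysis was possible because the labels give no replicate number. Depth limits Dbp most, which was at 0 in some libraries.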

Other observations

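In the TCDD libraries alone, the members followed a course over the hours that was not compared above. Nr1d1 was 186 ± 51.3 CPM (SD, n = 4) at 2 h and 5.69 ± 3.49 CPM at 24 h in WT, and 243 ± 110 CPM and 14 ± 3.29 CPM in PkmΔDRE, with no overlap between the hours. Arntl was 4.03 ± 1.91 CPM and 20.97 ± 5.49 CPM in WT at those hours, and 7.23 ± 0.654 CPM and 14.8 ± 8.39 CPM in PkmΔDRE, where the ranges of 6.35 to 7.90 and 6.74 to 25.5 CPM overlapped. Cry2 went from 104.6 ± 26.2 CPM to 33.5 ± 9.41 CPM in WT. These hours were not tested against each other under TCDD.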
